A study of Mus musculus with 9 samples.

Results

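The transcripts described here are those of the nuclear genes for respiratory complexes I, II, III and V, with cytochrome c, in HL-1 cells. Members were chosen by name: gene symbols that begin with Nduf, Uqcr or Atp5, together with Sdha, Sdhb, Sdhc, Sdhd, Cyc1 and Cycs, without 3 symbols ending in -ps. A level of at least 1 FPKM (fragments scaled to transcript length and to the mapped fragments of the library) in at least 3 of the 9 libraries was also required. Of 25175 symbols, 76 matched by name and 75 were kept. The remaining symbol, Ndufa4l2, reached 1 FPKM in 0 libraries and is given apart. Just inside the limit was Atp5s, which reached it in 8 libraries.

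HL-1 cells are immortalised atrial muscle cells of the mouse that still contract in culture, and were grown here in Claycomb medium. Ivermectin, an antiparasitic drug used in the laboratory to block importin α/β, was given at 5 µM. Importazole, a small-molecule inhibitor of importin-β, was given at 10 µM, and the vehicle was 0.1% DMSO. Exposure lasted 24 h in each of the 3 groups, with 3 libraries of messenger RNA per group. Whether the compound groups held DMSO, and whether the 3 libraries of a group came from separate cultures, is not in the labels. The p-values thus reflect the spread among these libraries alone, and that spread may be technical. The compounds are unrelated in structure and their doses differ, so values for ivermectin and importazole are set side by side at these doses only. All 10 cardiomyocyte markers (among them Myh6, Tnnt2 and Actc1) reached 1 FPKM in every library, with summed levels of 6723 to 7249 FPKM with ivermectin, 7267 to 7803 FPKM with importazole and 7611 to 8681 FPKM in vehicle. Over the 9 libraries the summed levels were 1.29 to 2.07 FPKM for 6 fibroblast markers, 7.99 to 10.4 FPKM for 5 endothelial markers, mostly Kdr, and 0.812 to 2.30 FPKM for 4 macrophage markers. The part of these shifts in the results was not tested.

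Oxidative phosphorylation passes electrons from NADH through complex I, or from succinate through complex II, to complex III, which hands them to cytochrome c and so to complex IV. Complexes I, III and IV pump protons across the inner mitochondrial membrane, and complex V, the ATP synthase, uses the returning protons to make ATP. The subunits are encoded mostly in the nucleus, with a few made inside the mitochondrion, except for complex II, which is wholly nuclear. Cardiac muscle depends on this pathway for most of its ATP.

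The 75 members made up 3.91% ± 0.19 of summed FPKM in ivermectin libraries, 3.67% ± 0.066 in importazole libraries and 3.78% ± 0.013 in vehicle libraries (mean ± SD, n = 3 each, leaving out 1 very abundant transcript, Yam1). Levels differed far more between complexes than between groups. The median gene of complex V had 397 FPKM with ivermectin, 391 FPKM with importazole and 387 FPKM in vehicle. The median complex III gene had 250 FPKM, 250 FPKM and 228 FPKM in the same groups, and the median complex II gene 138 FPKM, 136 FPKM and 144 FPKM. For complex I subunits the medians were 113 FPKM with ivermectin, 109 FPKM with importazole and 107 FPKM in vehicle. The complex I assembly factors, which help to build the complex and leave it afterwards, were the lowest of these 5 lists, at 15.5 FPKM, 13.2 FPKM and 13.3 FPKM. Atp5b, the catalytic β subunit of the ATP synthase, was the highest member at a mean of 1623 FPKM over the 9 libraries, followed by Atp5e, the small ε subunit, at 674.8 FPKM. Next above the lowest member, Atp5s (1.33 FPKM), came 6 assembly factors, from Ndufaf1 at 7.34 FPKM to Ndufaf2 at 16.6 FPKM.

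**Figure D1:**
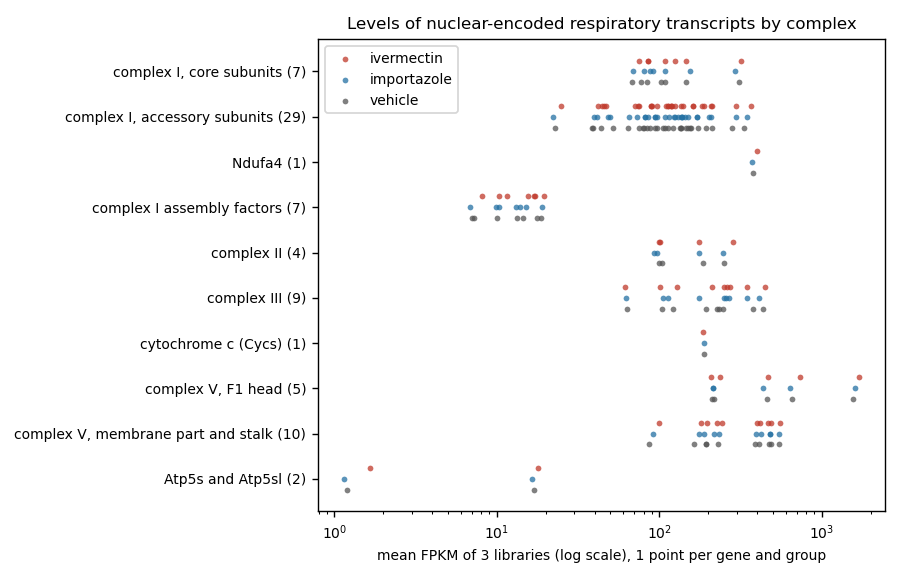
Mean FPKM of each member on a log scale, by complex, with 1 point per gene for each of the 3 groups (n = 3 libraries each). Each gene lies at nearly the same level in the 3 groups, while complex V subunits sit to the right, led by Atp5b at 1623 FPKM over the 9 libraries, and the assembly factors lie under 20 FPKM.

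Members were tested with limma in a model of log2(FPKM + 1) fitted to all 11337 genes that met the same limit on FPKM, and a gene was called changed at a Benjamini-Hochberg adjusted p under 0.05. Log2 changes on this scale understate the change of genes with low values. In bulk RNA, fewer cells with a transcript and less of it per cell cannot be told apart. With ivermectin 1 of 75 members rose against vehicle and 0 fell, against a background of 4.31% of all genes called. With importazole 1 of 75 rose against vehicle and 0 fell, with 2.26% of all genes called. Between ivermectin and importazole 1 of 75 members was called, higher with ivermectin, with 3.42% of all genes called. In each comparison 1.33% of the members were thus called. At an unadjusted p under 0.05, 11 members passed for ivermectin against vehicle (14.7%), where 20.7% of all genes passed. For importazole against vehicle 4 did (5.33%), where 15.8% of all genes did, and for ivermectin against importazole 12 did (16%), where 19% of all genes did. Ivermectin and importazole were compared with the same 3 vehicle libraries, so those comparisons are not independent.

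The size of the changes was small and was bounded for most members. The median log2 change over the 75 members was 0.07 for ivermectin against vehicle, where it was 0.01 over all genes tested. It was -0.0037 for importazole against vehicle, where all genes had 0.04, and 0.06 for ivermectin against importazole, where all genes had -0.03. The 95% interval of the change lay within 1.5-fold in either direction for 72, 71 and 73 of 75 members in these 3 comparisons, in that order. For all genes tested it did so for 88.0%, 90.3% and 88.8%. With ivermectin against vehicle the 3 exceptions were Ndufaf6, Ndufb2 and Atp5s, and with importazole against vehicle the 4 exceptions were Ndufaf6, Ndufb2, Atp5g2 and Uqcr11. Between ivermectin and importazole they were Atp5g2 and Atp5s. The groups did not overlap for 10 members with ivermectin against vehicle (13.3%, against 24.6% of all genes) and for 10 with importazole against vehicle (13.3%, against 23.6%). Between ivermectin and importazole they did not overlap for 14 (18.7%, against 24.2%).

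**Figure D2:**
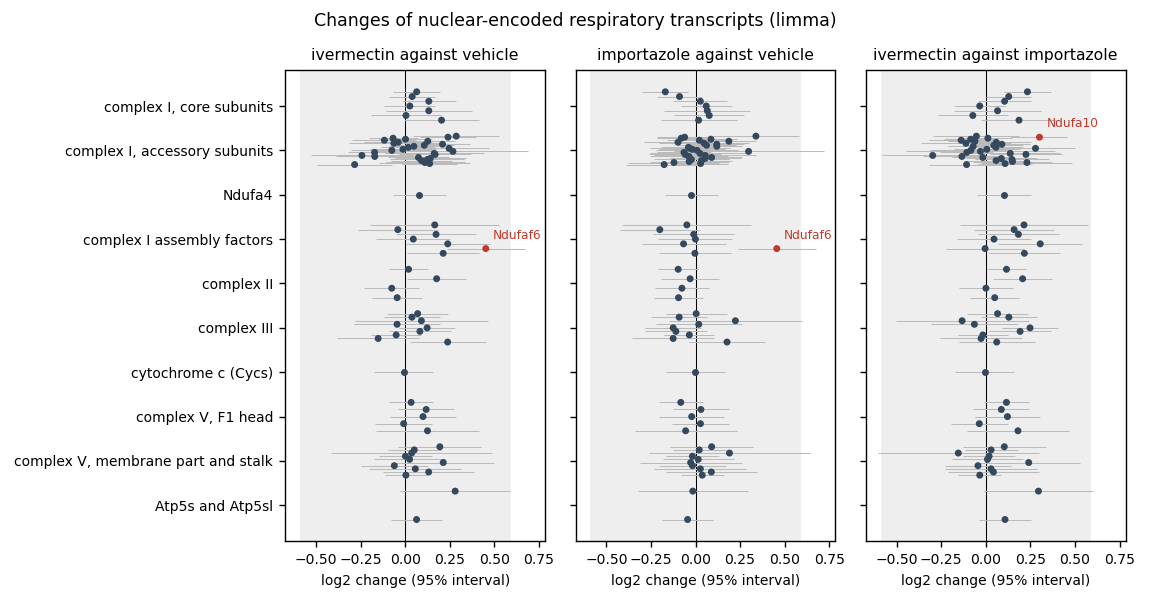
Log2 change of each member with its 95% interval from limma, for ivermectin against vehicle, importazole against vehicle and ivermectin against importazole, grouped by complex. Red points passed an adjusted p of 0.05 (Ndufaf6 in both comparisons with vehicle, Ndufa10 between the compounds), and the shaded band marks changes of less than 1.5-fold.

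Genes of the respiratory chain are known to share promoter elements for NRF1, the GABP proteins, YY1 and CREB family members, and the members' promoters were searched for them. RefSeq promoters (GRCm38.p6, 250 bases before to 50 after the annotated start) were matched for 61 of 75 members. The NRF1 motif GCATGCGC, searched like the others on both strands, was in 12 of 61 member promoters (19.7%) and in 3.05% of all 27025 promoters. The YY1 motif AAGATGGC was in 9 of 61 (14.8%, against 3.19%) and the CREB motif TGACGTCA in 5 of 61 (8.2%, against 2.03%). The GABP motif CCGGAAGT was in 4 of 61 (6.56%, against 4.31%), and the amino acid response motif TGATGNAA in 0 of 61 (against 4.51%). The 27025 promoters include those of genes under the limit on FPKM, and no share was taken over the tested genes alone. How far these shares are particular to respiratory genes was thus not tested. A match is only a match of letters in this window.

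A set of 3 promoters is shown, to put Ndufa10, the member called between the compounds, beside a steady member with the same motif and a complex III gene near the threshold. Capitals mark TGACGTCA in Ndufa10 (chr1:92473709-92474008, minus strand), TGACGTCA and then GCATGCGC in Cycs (chr6:50566520-50566819, minus strand), and 2 overlapping matches of GCATGCGC, on opposite strands, in Uqcrc1 (chr9:108936398-108936697, plus strand). Each is written 5′ to 3′.
Ndufa10: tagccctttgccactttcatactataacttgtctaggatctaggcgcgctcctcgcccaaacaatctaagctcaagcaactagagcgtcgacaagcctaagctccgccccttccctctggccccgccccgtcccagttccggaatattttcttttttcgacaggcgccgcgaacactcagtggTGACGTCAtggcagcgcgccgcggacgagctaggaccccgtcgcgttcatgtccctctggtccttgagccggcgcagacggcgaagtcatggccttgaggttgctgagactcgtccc
Cycs: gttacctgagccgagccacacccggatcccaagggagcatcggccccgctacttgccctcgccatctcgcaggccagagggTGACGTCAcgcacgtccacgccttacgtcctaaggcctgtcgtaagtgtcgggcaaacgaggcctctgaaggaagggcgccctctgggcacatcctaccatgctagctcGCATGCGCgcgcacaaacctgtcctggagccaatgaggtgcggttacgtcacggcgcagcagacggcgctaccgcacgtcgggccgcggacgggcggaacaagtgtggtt
Uqcrc1: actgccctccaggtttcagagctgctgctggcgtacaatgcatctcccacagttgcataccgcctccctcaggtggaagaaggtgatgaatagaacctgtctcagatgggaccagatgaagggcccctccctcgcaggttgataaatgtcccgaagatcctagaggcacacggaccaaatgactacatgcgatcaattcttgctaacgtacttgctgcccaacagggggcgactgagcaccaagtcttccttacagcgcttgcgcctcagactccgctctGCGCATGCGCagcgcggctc
The motif TGACGTCA was also in Ndufa11, Ndufb2 and Uqcrfs1. Of these 5 genes Ndufa10 was the only member called, and the log2 changes between ivermectin and importazole were 0.30 for Ndufa10, -0.01 for Cycs, 0.01 for Ndufa11, -0.03 for Ndufb2 and -0.02 for Uqcrfs1.

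Complex I has a core of subunits that carry out electron transfer and proton pumping, of which 7 are nuclear. All of the 7 core members had a positive log2 change with ivermectin against vehicle (0.00 to 0.20). So did 74.7% of all members and 53.3% of all genes tested. The core members averaged 0.04, 0.03 and 0.185 above the vehicle mean on the log2 scale in ivermectin 1, 2 and 3. Of the 7, 0 passed the test, where 4.31% of all genes did. Ndufs1, the largest iron-sulfur subunit (GRCm38 chromosome 1, 63143596 to 63176833, minus strand), had 108 FPKM, 103 FPKM and 113 FPKM in ivermectin libraries. It had 92.2 FPKM, 91.8 FPKM and 90.3 FPKM in importazole libraries, against 107 FPKM, 98.0 FPKM and 104 FPKM in vehicle libraries. All importazole libraries lay below all libraries of the other groups. Its log2 change was -0.17 for importazole against vehicle (limma adjusted p = 0.184) and 0.23 for ivermectin against importazole (limma adjusted p = 0.0587), and neither passed. Ndufs1 shares sequence on the opposite strand with Eef1b2, and the labels do not state how strand was used, so its level is uncertain.

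Ndufv1, which binds NADH and the flavin cofactor, had overlapping groups, with 145 to 149 FPKM in ivermectin libraries, 145 to 168 FPKM in importazole libraries and 126 to 159 FPKM in vehicle libraries. The lowest core member, Ndufs3, averaged 70.7 FPKM over the 9 libraries. Ndufv2, an iron-sulfur partner of Ndufv1, had the highest core change with ivermectin against vehicle, a log2 change of 0.20 (limma adjusted p = 0.262), with ivermectin 3 at 147 FPKM and the other 8 libraries at 104 to 120 FPKM.

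The 29 accessory subunits surround that core and support its assembly and stability. Against vehicle, where 4.31% and 2.26% of all genes passed, 0 of 29 did so with ivermectin and 0 of 29 with importazole. Between the compounds 1 of 29 passed (3.45%, against 3.42% of all genes). That gene was Ndufa10, an accessory subunit related to nucleoside kinases (GRCm38 chromosome 1, 92439010 to 92473860, minus strand). Ndufa10 had 151 FPKM, 178 FPKM and 155 FPKM in ivermectin libraries and 137 FPKM, 129 FPKM and 126 FPKM in importazole libraries. In vehicle libraries it had 139 FPKM, 139 FPKM and 130 FPKM. Every ivermectin library was above every other library, while importazole and vehicle overlapped. Between ivermectin and importazole the log2 change was 0.30 (95% interval 0.14 to 0.46, limma adjusted p = 0.0467). It was 0.24 for ivermectin against vehicle (limma adjusted p = 0.0933) and -0.06 for importazole against vehicle (limma adjusted p = 0.735). The call between the compounds was lost whichever of the 9 libraries was left out, with an adjusted p of up to 0.153 in limma, and the log2 change stayed between 0.23 and 0.35 over the 19 alternatives.

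Ndufa1, a small membrane subunit needed for assembly, had 44.2 FPKM, 41.0 FPKM and 56.5 FPKM with ivermectin and 50.1 FPKM, 47.0 FPKM and 48.6 FPKM with importazole. In vehicle it had 42.3 FPKM, 37.0 FPKM and 35.6 FPKM, so that the importazole libraries stood above vehicle and the ivermectin libraries overlapped both. It had the highest accessory change in both comparisons with vehicle, at log2 changes of 0.29 with ivermectin (limma adjusted p = 0.172) and 0.34 with importazole (limma adjusted p = 0.154). Ndufv3, a small subunit of the NADH-binding arm, had the lowest change in both. It had 116 FPKM, 123 FPKM and 139 FPKM with ivermectin, 142 FPKM, 133 FPKM and 131 FPKM with importazole, and 158 FPKM, 170.5 FPKM and 133 FPKM in vehicle. The groups overlapped through vehicle 3, and the log2 change was -0.28 with ivermectin (limma adjusted p = 0.126) and -0.18 with importazole (limma adjusted p = 0.41). Ndufb6, a membrane-arm subunit, had the lowest change between the compounds, -0.30 (limma adjusted p = 0.244), with 92.8 FPKM, 112 FPKM and 136 FPKM in ivermectin libraries against 135 FPKM, 131 FPKM and 149.5 FPKM in importazole libraries. Levels of accessory subunits spanned 23.2 FPKM for Ndufs4, a matrix-arm subunit whose loss in mice causes encephalopathy, to 349 FPKM for Ndufb9, a membrane-arm subunit.

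Ndufa4, which was named as a complex I subunit and is now assigned to cytochrome c oxidase, had 387 FPKM, 376 FPKM and 438 FPKM with ivermectin, 373 FPKM, 359 FPKM and 385 FPKM with importazole, and 392.3 FPKM, 376 FPKM and 366 FPKM in vehicle. The 3 groups overlapped. Its relative Ndufa4l2 is hypoxia-inducible and lay under the limit for testing. Ndufa4l2 was listed at 0, 0.355 FPKM and 0.292 FPKM in ivermectin libraries and at 0.852 FPKM, 0.772 FPKM and 0.476 FPKM in importazole libraries. In vehicle libraries it had 0.673 FPKM, 0.561 FPKM and 0.547 FPKM. Each ivermectin library lay below every library of both other groups. In a fit without the filter, to 22754 symbols, its log2 change was -0.40 for ivermectin against vehicle (limma adjusted p = 0.272), 0.09 for importazole against vehicle (limma adjusted p = 0.872) and -0.49 for ivermectin against importazole (limma adjusted p = 0.196). None of these passed. Among 11 other hypoxia-inducible genes that were tested, 10 fell with ivermectin against vehicle (median log2 change -0.99), where 4.31% of all genes were called. With importazole 0 were called, against 2.26% of all genes (median 0.04, 1 of 11 at an unadjusted p under 0.05). Between ivermectin and importazole all 11 were called lower with ivermectin, where 3.42% of all genes were called. They included Bnip3, a mitophagy receptor, at 10.3 FPKM, 9.30 FPKM and 10.2 FPKM with ivermectin, 46.4 FPKM, 41.6 FPKM and 41.9 FPKM with importazole, and 43.3 FPKM, 41.3 FPKM and 40.4 FPKM in vehicle.

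The complex I assembly factors Ndufaf1 to Ndufaf7 held the member called in both comparisons with vehicle. Ndufaf6, which is needed for an early step that brings the mitochondrially made subunit ND1 into the complex, lies on GRCm38 chromosome 4, 11051045 to 11076205, minus strand. Ndufaf6 had 8.91 FPKM, 10.8 FPKM and 11.2 FPKM in ivermectin libraries and 10.1 FPKM, 9.59 FPKM and 11.2 FPKM in importazole libraries. In vehicle libraries it had 7.21 FPKM, 7.80 FPKM and 6.69 FPKM. All 6 compound libraries lay above all 3 vehicle libraries, and the compound groups overlapped. Ndufaf6 rose with ivermectin by 0.45 on the log2 scale (95% interval 0.23 to 0.67, limma adjusted p = 0.0282) and with importazole by 0.46 (95% interval 0.24 to 0.67, limma adjusted p = 0.0407). Between ivermectin and importazole the log2 change was -0.0042 (95% interval -0.22 to 0.21, limma adjusted p = 0.988).

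The rise of Ndufaf6 against vehicle was called with ivermectin in 10 of 19 alternatives, over which its log2 change was 0.39 to 0.54 and its limma adjusted p 0.0165 to 0.119. With importazole it was called in 8 of 19, at log2 changes of 0.40 to 0.51 and limma adjusted p of 0.0249 to 0.154. Leaving out 1 library ended the call with ivermectin for ivermectin 2, ivermectin 3 and each of the 3 vehicle libraries. With importazole it ended the call for ivermectin 2, each importazole library and each vehicle library. No near-identical copy of at least 200 bases and no overlapping tested gene was found for Ndufaf6 or Ndufa10 in GENCODE M21.

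The other 6 assembly factors were not called. Ndufaf5, which hydroxylates an arginine of the subunit NDUFS7, had 16.3 FPKM, 16.2 FPKM and 19.3 FPKM with ivermectin, 15.3 FPKM, 14.2 FPKM and 11.9 FPKM with importazole, and 13.7 FPKM, 13.7 FPKM and 16.1 FPKM in vehicle. All ivermectin libraries stood above the rest, by a narrow margin over vehicle 3. Its log2 change was 0.24 for ivermectin against vehicle (limma adjusted p = 0.237) and 0.31 for ivermectin against importazole (limma adjusted p = 0.149). Ndufaf7, an arginine methyltransferase of complex I assembly, had the same order, with 16.1 FPKM, 14.9 FPKM and 15.6 FPKM with ivermectin, 13.2 FPKM in each importazole library, and 14.4 FPKM, 11.3 FPKM and 14.3 FPKM in vehicle (log2 change 0.21 for ivermectin against vehicle, limma adjusted p = 0.219). Ndufaf1, Ndufaf3 and Ndufaf4, which act in the assembly of the membrane and ubiquinone-binding parts, had log2 changes of 0.17, 0.17 and 0.04 with ivermectin against vehicle, and -0.05, -0.01 and -0.000996 with importazole. Ndufaf3 overlaps Impdh2 on the opposite strand. Ndufaf2, a late-acting factor, was the only assembly factor with a negative change with ivermectin (-0.04, limma adjusted p = 0.85) and had the lowest change with importazole (-0.20, limma adjusted p = 0.369). The median log2 change of the 7 factors was 0.17 with ivermectin against vehicle, -0.01 with importazole against vehicle and 0.18 between the compounds. A list of 20 tested genes outside the Nduf family held assembly factors, the inhibitor Atpif1 and Usmg5. Against vehicle 0 of these 20 were called with either compound, where 4.31% and 2.26% of all genes were. At an unadjusted p under 0.05 in limma, 5 passed with ivermectin (25%, against 20.7% of all genes). With importazole 2 did (10%, against 15.8%). Between the compounds 1 of the 20 was called (5%, against 3.42% of all genes). It was Lyrm7, a chaperone of the Rieske protein of complex III, which lay near the limit of 1 FPKM. Lyrm7 had 2.54 FPKM, 2.23 FPKM and 2.47 FPKM with ivermectin and 1.15 FPKM, 1.58 FPKM and 1.42 FPKM with importazole. In vehicle it had 1.572 FPKM, 2.235 FPKM and 1.717 FPKM, which overlapped both compound groups. Its log2 change between the compounds was 0.52, higher with ivermectin (limma adjusted p = 0.0392). Against vehicle it was 0.27 with ivermectin (limma adjusted p = 0.227) and -0.25 with importazole (limma adjusted p = 0.334).

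**Figure D3:**
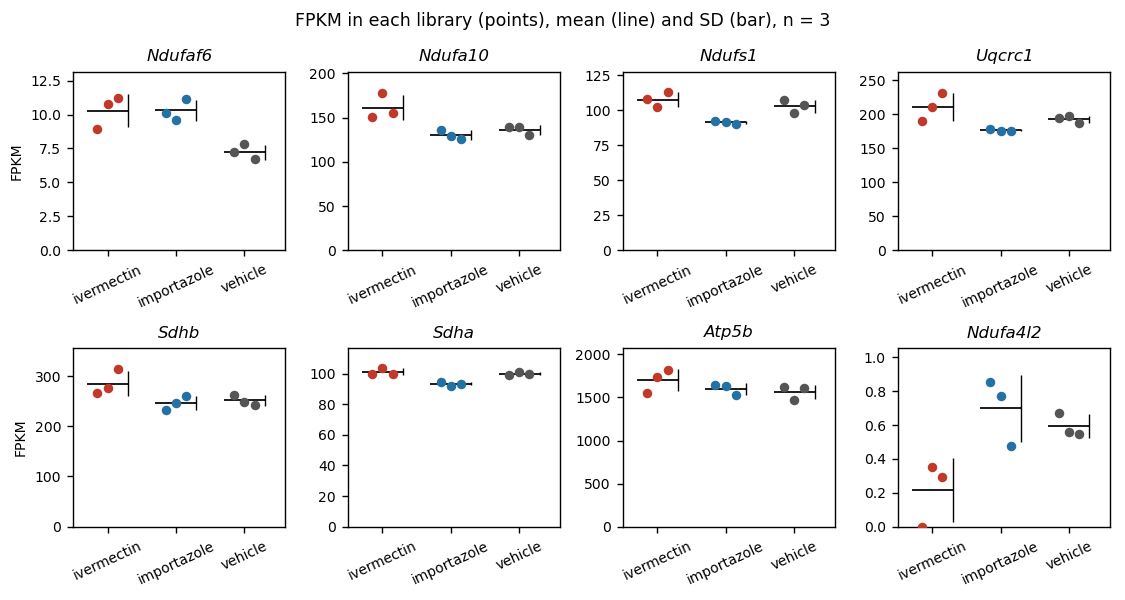
FPKM of 8 genes in each library (points), with the group mean (line) and SD (bar, n = 3), in ivermectin, importazole and vehicle groups on linear axes that start at 0. Ndufaf6 lies above vehicle in all 6 compound libraries, Ndufa10 is highest in the 3 ivermectin libraries, Ndufs1 and Uqcrc1 are lowest with importazole, and Ndufa4l2 stays under 1 FPKM throughout.

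Complex II, succinate dehydrogenase, also belongs to the citric acid cycle, and 0 of its 4 members passed in any comparison. With 2.26% to 4.31% of all genes called, 0 among so few genes is near the share over all genes. Sdha, the flavoprotein that oxidises succinate, had 100 FPKM, 104 FPKM and 99.8 FPKM in ivermectin libraries, 94.3 FPKM, 92.2 FPKM and 93.4 FPKM in importazole libraries, and 98.9 FPKM, 101 FPKM and 99.9 FPKM in vehicle libraries. The importazole libraries were all lower than the rest, and the log2 change was -0.10 against vehicle (95% interval -0.21 to 0.01, limma adjusted p = 0.381). Sdhb, the iron-sulfur subunit, had 266 FPKM, 276 FPKM and 314 FPKM with ivermectin, 232 FPKM, 247 FPKM and 261 FPKM with importazole, and 263 FPKM, 249 FPKM and 243 FPKM in vehicle. The ivermectin libraries were the highest, with the lowest of them close to vehicle 1 (log2 change 0.18 against vehicle, limma adjusted p = 0.217). Sdhc and Sdhd, which anchor the enzyme in the membrane, had log2 changes of -0.08 and -0.05 with ivermectin and -0.08 and -0.10 with importazole, and their groups overlapped. All 4 members had a negative change with importazole against vehicle, with a median of -0.09. So did 40 of all 75 members and 4370 of all 11337 genes tested.

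Complex III transfers electrons from ubiquinol to cytochrome c, and 0 of its 9 members passed in any comparison. That is near the share of all genes, 2.26% to 4.31%. The median log2 change was 0.07 for ivermectin against vehicle, -0.03 for importazole against vehicle and 0.06 between the compounds. Uqcrc1, a core protein of the matrix side, had 190 FPKM, 210.1 FPKM and 231 FPKM in ivermectin libraries and 178 FPKM, 176 FPKM and 176 FPKM in importazole libraries. In vehicle libraries it had 194 FPKM, 197 FPKM and 187 FPKM. All importazole libraries were below all others, and ivermectin and vehicle overlapped. The log2 change was 0.25 for ivermectin against importazole (95% interval 0.09 to 0.40, limma adjusted p = 0.087) and -0.13 for importazole against vehicle (limma adjusted p = 0.429). Its partner Uqcrc2 had 116 FPKM, 134 FPKM and 137 FPKM with ivermectin, 114 FPKM, 112 FPKM and 112 FPKM with importazole, and 133 FPKM, 119 FPKM and 113 FPKM in vehicle (log2 change between the compounds 0.19, limma adjusted p = 0.215).

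The groups overlapped for both nuclear-encoded electron carriers of complex III. Cyc1, its cytochrome subunit, had 240.2 FPKM, 273 FPKM and 269.7 FPKM with ivermectin, 267 FPKM, 255 FPKM and 226 FPKM with importazole, and 261 FPKM, 244 FPKM and 241 FPKM in vehicle. Uqcrfs1, the Rieske iron-sulfur protein and the lowest member of the complex, lay at 59.6 to 65.1 FPKM with ivermectin, 59.6 to 63.7 FPKM with importazole and 61.0 to 67.2 FPKM in vehicle. The small subunit Uqcrq had the highest change with ivermectin against vehicle, at 258 FPKM, 238 FPKM and 316 FPKM with ivermectin against 226 FPKM, 234 FPKM and 223 FPKM in vehicle (log2 change 0.24, limma adjusted p = 0.197), and 279.8 FPKM, 244 FPKM and 250.5 FPKM with importazole. The hinge subunit Uqcrh had the lowest change with ivermectin against vehicle (-0.15, limma adjusted p = 0.445). Cycs, cytochrome c itself, also overlapped between groups, with 170.0 FPKM, 186 FPKM and 205 FPKM with ivermectin, 180 FPKM, 192 FPKM and 191 FPKM with importazole, and 188 FPKM, 198 FPKM and 177 FPKM in vehicle. Its log2 change was -0.01 with ivermectin (95% interval -0.18 to 0.16) and -0.0022 with importazole (95% interval -0.17 to 0.16) against vehicle. Near-identical copies among the GENCODE M21 transcripts were found for Cycs, and also for Uqcrc2, Atp5g1, Ndufs3, Ndufb6 and Ndufb9, so reads could be split between them and these levels are uncertain.

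Complex V has a catalytic F1 head and a membrane part joined by stalks, and 0 of its 15 subunits passed in any comparison. That too is near the share of all genes, 2.26% to 4.31%. Atp5b had 1556 FPKM, 1734 FPKM and 1815 FPKM with ivermectin, 1644 FPKM, 1632 FPKM and 1524 FPKM with importazole, and 1618 FPKM, 1472 FPKM and 1613 FPKM in vehicle. The groups overlapped, and the log2 change was 0.12 with ivermectin (95% interval -0.04 to 0.27) and 0.03 with importazole (95% interval -0.13 to 0.19) against vehicle. Atp5a1, the α subunit of the head, had 464 FPKM, 479 FPKM and 461 FPKM with ivermectin, 436 FPKM, 451 FPKM and 409.7 FPKM with importazole, and 444 FPKM, 467 FPKM and 462 FPKM in vehicle. It was higher in all ivermectin than in all importazole libraries (log2 change 0.12, limma adjusted p = 0.303), and it overlaps Haus1 on the opposite strand. The 5 genes of the head had a median log2 change of 0.10 with ivermectin and -0.02 with importazole against vehicle. The 10 genes of the membrane part and stalk had medians of 0.04 and 0.02 in the same comparisons.

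A set of 3 nuclear genes encodes the same mature c subunit of the membrane rotor. Atp5g3 was the highest of them, at 517 FPKM, 548 FPKM and 586 FPKM with ivermectin, 573 FPKM, 541 FPKM and 516 FPKM with importazole, and 576 FPKM, 533 FPKM and 539.6 FPKM in vehicle. Atp5g1 followed at 474 FPKM, 468 FPKM and 524 FPKM with ivermectin, 491 FPKM, 494 FPKM and 450.1 FPKM with importazole, and 497 FPKM, 455 FPKM and 463 FPKM in vehicle. The groups overlapped for both. Atp5g2 was the lowest of the 3, at 156 FPKM, 233 FPKM and 202 FPKM with ivermectin, 186 FPKM, 235 FPKM and 231 FPKM with importazole, and 252 FPKM, 136 FPKM and 198 FPKM in vehicle, so that vehicle alone spanned both compound groups. Its 95% intervals reached -0.42 to 0.49 with ivermectin and -0.26 to 0.64 with importazole against vehicle on the log2 scale. Atp5s, a regulator known as coupling factor B, was close to the limit of 1 FPKM set for testing. It had 1.92 FPKM, 1.30 FPKM and 1.72 FPKM with ivermectin and 1.08 FPKM, 1.27 FPKM and 1.10 FPKM with importazole. In vehicle it had 1.43 FPKM, 1.32 FPKM and 0.813 FPKM (log2 change 0.28 for ivermectin against vehicle, limma adjusted p = 0.284).

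**Figure D4:**
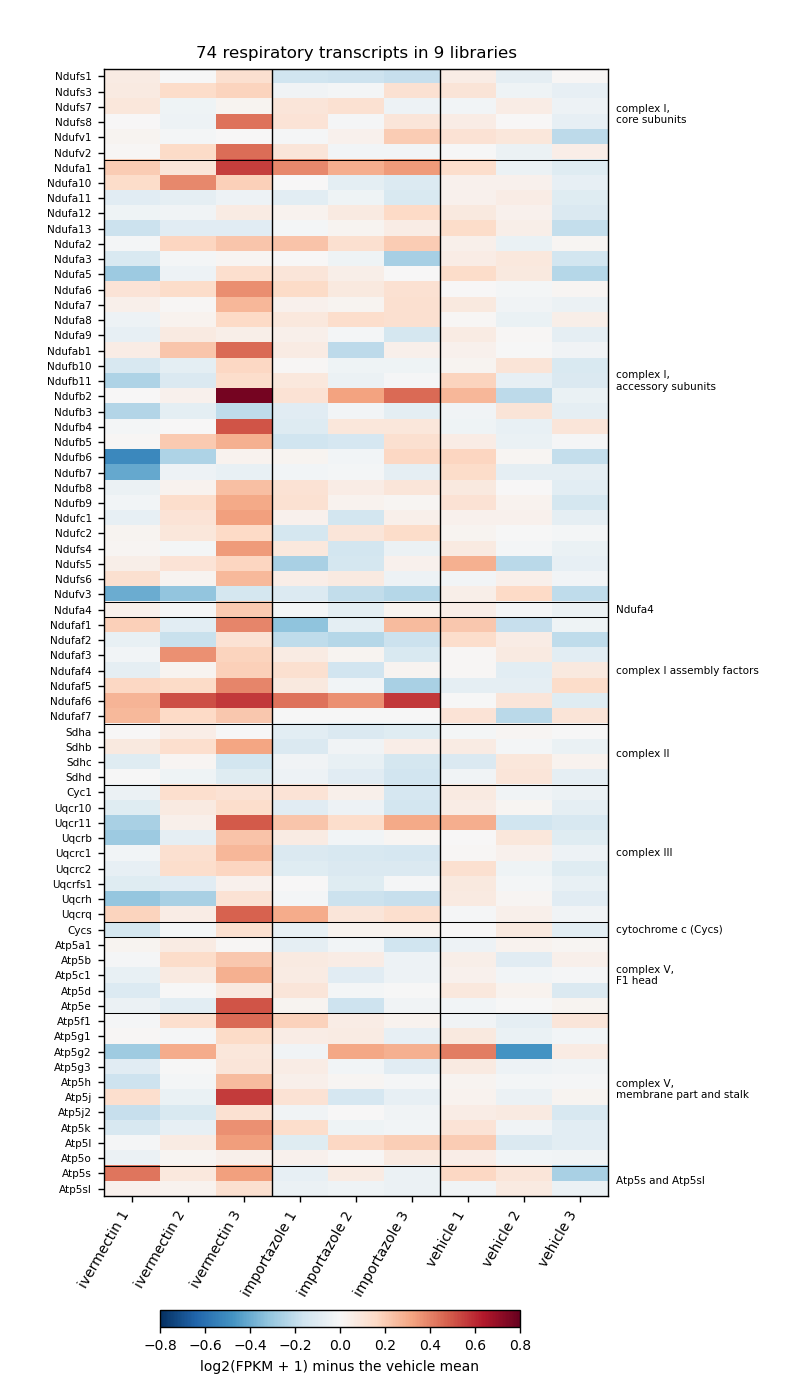
Log2(FPKM + 1) of 74 of the 75 members in each of the 9 libraries, minus the mean of the 3 vehicle libraries, with genes by complex and the groups ivermectin, importazole and vehicle from left to right. The column of ivermectin 3 is red for most genes, with 60 of all 75 members highest there among the 3 ivermectin libraries, and the row of Ndufaf6 is red in all 6 compound libraries.

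A single library weighed on the ivermectin values. Of the 3 ivermectin libraries, ivermectin 3 held the highest level for 60 of 75 members (80.0%), against 43.1% of all genes tested. The members averaged -0.04, 0.04 and 0.21 above the vehicle mean on the log2 scale in ivermectin 1, 2 and 3, with 0.02, -0.0055 and 0.01 in the importazole libraries and 0.07, -0.01 and -0.05 in the vehicle libraries. Ribosomal protein genes, 75 other abundant transcripts, averaged 0.06, 0.15 and 0.34 in the ivermectin libraries, 0.22, 0.20 and 0.23 in the importazole libraries and 0.08, -0.02 and -0.06 in the vehicle libraries. Ivermectin 3 and vehicle 2 were also the libraries that list Yam1 at 0, where the other 7 had 24051 to 41567 FPKM of it. In ivermectin 3, members with a transcript under 1000 bases averaged 0.21 (33 genes) and longer members also 0.21 (40 genes), while all genes tested averaged 0.22 under 1000 bases and 0.02 above. Length here is that of the longest protein-coding transcript in GENCODE M21, such as 4715 bases for Atp5g1. The form present in these cells may be shorter, so the length classes may be mixed. Without ivermectin 3 the median member change was 0.00881 for ivermectin against vehicle and -0.0087 for ivermectin against importazole, and 0 members were called in those comparisons, while Ndufa1 joined Ndufaf6 in importazole against vehicle. Of 11337 genes, 315 were then called for ivermectin against vehicle, 301 for ivermectin against importazole and 320 for importazole against vehicle. Without both ivermectin 3 and vehicle 2 the medians were -0.00495 for ivermectin against vehicle, -0.00874 for importazole against vehicle and -0.0087 for ivermectin against importazole, with 0 members called in each.

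The mitochondrially encoded partners of these subunits were measured in the same libraries. Of 10 such genes of complexes I, III and V, 6 fell with importazole against vehicle (60%, against 2.26% of all genes called) and 0 rose. The median log2 change of the 10 was -0.47. Between the compounds 8 were higher with ivermectin (80%, against 3.42% of all genes called). The share of all genes called with ivermectin against vehicle was 4.31%. With ivermectin against vehicle 1 rose, mt-Nd3, a complex I subunit, by 0.40 (limma adjusted p = 0.0494), a call lost without ivermectin 3 and vehicle 2 (limma adjusted p = 0.159). mt-Cytb, the only mitochondrially encoded subunit of complex III, had 817 FPKM, 897 FPKM and 916 FPKM with ivermectin, 511 FPKM, 577 FPKM and 633 FPKM with importazole, and 1027 FPKM, 835 FPKM and 948 FPKM in vehicle. It fell with importazole by 0.71 on the log2 scale (limma adjusted p = 0.00255), while the 9 nuclear genes of complex III had a median change of -0.03. mt-Atp6, of the membrane part of complex V, had 960 FPKM, 1058 FPKM and 1335 FPKM with ivermectin, 663 FPKM, 690 FPKM and 735 FPKM with importazole, and 1099 FPKM, 1102 FPKM and 1127 FPKM in vehicle. All importazole libraries lay below all others. It fell with importazole by 0.67 (limma adjusted p = 0.00522), where the 15 nuclear genes of complex V had a median of 0.02.

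For complex I the 7 mitochondrially encoded genes averaged -0.47, -0.36 and -0.26 relative to the vehicle mean in the importazole libraries, while the 36 nuclear subunits averaged 0.02, 0.0026 and 0.03 there. In the ivermectin libraries the same averages were -0.04, 0.10 and 0.22 for the mitochondrial genes and -0.05, 0.03 and 0.19 for the nuclear ones. Without ivermectin 3 and vehicle 2 the changes with importazole were -0.79 for mt-Cytb, -0.68 for mt-Atp6 and -0.57 for mt-Nd4. The difference between mitochondrial and nuclear genes was not tested. Values of mitochondrial genes are uncertain because the nucleus holds copies of them and mt-Atp6 overlaps mt-Atp8. Against vehicle 4.31% of all genes were called with ivermectin and 2.26% with importazole. Cytochrome oxidase, which follows cytochrome c in the chain, had 1 of 13 nuclear genes called (7.69%) in each of these comparisons. Cox6a2, its heart and muscle isoform of subunit VIa, had 119 FPKM, 141 FPKM and 135 FPKM with ivermectin, 119.7 FPKM, 122 FPKM and 101 FPKM with importazole, and 52.4 FPKM, 49.6 FPKM and 48.6 FPKM in vehicle, changes of 1.37 and 1.17 on the log2 scale (limma adjusted p = 1.03e-05 and 5.33e-05). Among 12 regulators of respiratory gene transcription, such as Ppargc1a, Nrf1 and Tfam, 0 were called in any comparison with limma (1, 1 and 0 at an unadjusted p under 0.05). Over all genes 4.31%, 2.26% and 3.42% were called, and 20.7%, 15.8% and 19% had an unadjusted p under 0.05.

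**Figure D5:**
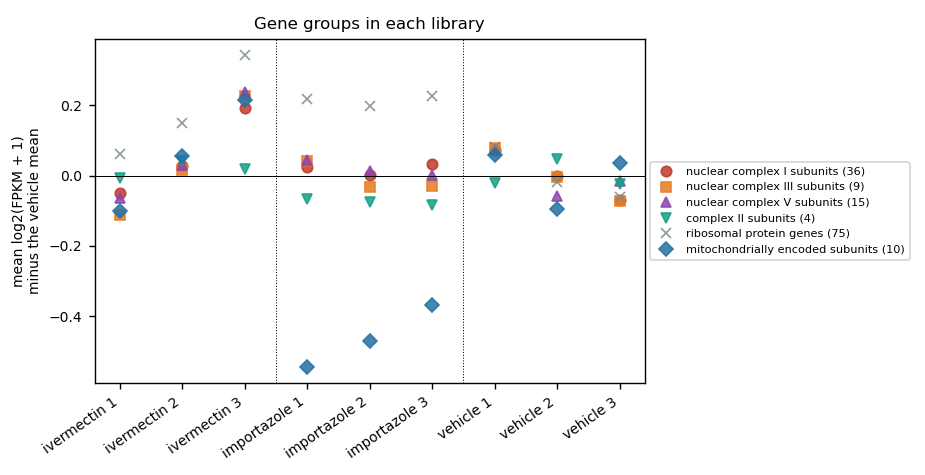
Mean log2(FPKM + 1) of each gene group minus its vehicle mean, in each library of the ivermectin, importazole and vehicle groups. The mitochondrially encoded genes lie between -0.54 and -0.37 in the importazole libraries while the nuclear complexes stay between -0.08 and 0.04, and ivermectin 3 is the highest ivermectin library for each group but complex II.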

How the data were processed

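Messenger RNA of HL-1 cells was sequenced on the Ion Proton system, with 3 libraries in each of 3 groups taken from the labels. Each deposited file gives 1 FPKM value per symbol, per the file headers. Tools named in the submitters' processing notes are STAR, Bowtie2, Bowtie and Cufflinks, with the builds mm10 and GRCm38. For their roles and versions, the annotation and the use of strand, the sources used here give nothing. FPKM is relative to all mapped fragments, so a change in an abundant transcript moves the others. Reads could not be reconstructed from these values, and library depth is unknown. Summed FPKM was 365259 to 416748, and 11055 to 11200 symbols per library reached 1 FPKM.

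Symbols on several lines (48, with 0 members among them) had their values added up. The 11337 genes at 1 FPKM or more in 3 or more libraries were fitted as log2(FPKM + 1), from the deposited FPKM, with group as the only term, using limma 3.58.1 (trend and robust options) in R 4.3.3. All p-values are two-sided and adjusted by Benjamini-Hochberg over these genes. The procedure was tested on simulated data. The count of members called is read beside the share of all genes called, and no set test was made. Annotation came from GENCODE M21 (GRCm38), which held 73 of 75 members. By its transcripts 22 members have a near-identical copy (at least 200 bases at 95% identity) and 14 have a tested gene overlapping on the other strand, and their values are uncertain where reads could be split. Plots used matplotlib 3.10.9 under Python 3.11.15.

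The members, gene lists and tests were chosen with earlier results of these data known. Named genes were all members called, those with the extreme changes and levels in each complex, a set of central subunits (1 core member of complex I is not reported here), all Ndufaf genes and up to 4 called genes of each related list. Ndufa11 and Ndufb2 were named for their promoter motif or interval. The motif letters were also chosen with results known: forms of the NRF1 and YY1 motifs longer by a pair of bases were searched first, and the shorter forms printed here match more promoters, among the members and among all genes. Alternatives were pseudocounts of 0.1 and 0.5, no filter and a filter at 5 FPKM, quantile and median-of-ratios scaling, removal of GC and length trends, fits to the 6 libraries compared, a replicate block, and leaving out each library or both that list Yam1 at 0.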

Additional observations from a re-analysis of the deposited data

How the results depend on the processing

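Of the results on named members over 19 alternatives, 2396 kept their side of the threshold, 33 lost a call and 16 gained one. None changed sign with a call. Most of the 2396 were of members not called to begin with. Against vehicle, Ndufaf6 lost its call in 9 of 19 alternatives with ivermectin and in 11 of 19 with importazole. Ndufa10 lost its call between the compounds in 13 of 19. Leaving out each library gave 243 to 399 genes called for ivermectin against vehicle, 128 to 320 for importazole against vehicle and 177 to 396 for ivermectin against importazole. Members called were then 0 to 1, 0 to 2 and 0 to 1, with Ndufv3 (lower) in place of Ndufaf6 for ivermectin against vehicle without vehicle 3 and Uqcrc1 in place of Ndufa10 between the compounds without ivermectin 1. Without a filter 211, 133 and 177 genes and 0 members were called in each comparison. Without both libraries that list Yam1 at 0, 195, 161 and 233 genes and 0 members were called, and the median member change for ivermectin against vehicle was -0.00495. Fits to the 6 libraries compared called 274 genes and 0 members for ivermectin against vehicle, and 289 genes and 0 members for ivermectin against importazole. Some of these fits had fewer libraries, and the fit without a filter had more genes. The cause of these differences was not tested.

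With the GC and length trend removed, 2 members were called for ivermectin against vehicle (Ndufaf6 higher, Uqcrh lower), 3 for importazole against vehicle (Ndufa1 and Ndufaf6 higher, Ndufs1 lower) and 3 for ivermectin against importazole (Ndufa10, Ndufs1 and Uqcrc1). That fit held 73 members and 10867 genes, of which 660, 359 and 548 genes were called in these comparisons, in that order. Quantile normalization called 0 members for importazole against vehicle, and for ivermectin against importazole 6 (Ndufa10, Ndufs1, Sdhb, Uqcr10, Uqcrc1 and Uqcrc2, all higher with ivermectin). These were 0 and 6 of 75 members, beside 276 and 467 of 11337 genes called in the same fits. In the main fit 1 of 75 members and 388 of 11337 genes were called for ivermectin against importazole. Quantile normalization also split all genes called with importazole against vehicle into 159 higher and 117 lower, where 192 and 64 were found without it. Median-of-ratios scaling called 3 of 75 members and the 5 FPKM filter 2 of 74 for ivermectin against importazole. Of all genes, 441 of 11337 were called with that scaling and 385 of 8205 with that filter.

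Same-numbered libraries correlated at -0.21 to 0.145 in their deviations from group means, so the numbers were not taken to pair the samples. The highest correlation between libraries of different groups was 0.307. It was that of ivermectin 3 with vehicle 2, the libraries that list Yam1 at 0, and its cause was not tested. With the replicate block 0 members were called in each comparison. Genes called were then 354 for ivermectin against vehicle, 175 for importazole against vehicle and 257 for ivermectin against importazole. Unknown depth and 3 libraries per group limit how small a change could be called.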

Other observations

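Over the 9 libraries the levels most like that of Ndufa4l2, by Pearson correlation of log2(FPKM + 1), were those of Creld2 (0.974), Prelid2 (0.965), Shisa8 (0.958), Klf16 (0.954) and Lipe (0.951). The libraries are shared between these genes and fall into 3 groups, and the values are a description of likeness with no test.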
